A study of Mus musculus with 9 samples.

Results

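The genes described here are 10 non-collagen genes of the extracellular matrix, 7 that encode matricellular or closely related secreted proteins (Thbs1, Thbs2, Tnc, Sparc, Postn, Spp1 and Ccdc80) and 3 that encode glycoproteins of matrix fibrils (Fn1, Fbn1 and Fbn2). They were listed by name, with earlier results of these data known. They were found by matching the Ensembl identifiers of the deposited count table to gene symbols. All 10 of the 10 were among the 55450 genes of the table, and all passed the filter on low counts that left 19357 genes for testing.

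RNA-sequencing was performed on EYFP+ mammary cells sorted from adult nulliparous female mice of 3 genotypes, with 3 libraries per genotype. Every mouse carried K8CreERT2, a tamoxifen-inducible Cre recombinase driven by the keratin 8 promoter of luminal epithelial cells, and lsl-EYFP, a reporter that Cre switches on, so that EYFP marks recombined cells and their descendants. Control mice (lsl-EYFP;K8CreERT2) had no floxed gene, LATS1/2-KO mice (LATS1/2f/f;lsl-EYFP;K8CreERT2) had floxed Lats1 and Lats2, and LATS1/2-Sox9-KO mice carried the alleles LATS1/2f/f and Sox9f/f with the same reporter and driver. All groups, control included, were given 2 mg of tamoxifen on 5 days, and per the labels cells were sorted 7 days later. The gate kept single live EYFP+ cells, and no exclusion of leukocytes or endothelial cells is described for it. The median library held 46719296 counts in control (range 44167762 to 47003587), 57331239 in LATS1/2-KO (50508666 to 61745346) and 59696754 in LATS1/2-Sox9-KO (55503365 to 61967651). Over all genes, the libraries of a genotype (n = 3) differed by more than sampling noise at this depth. Counting error still matters where counts are low, as for Postn in control, with 224, 210 and 204 counts.

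Levels are given as normalized counts, which are counts scaled to one common library size. Fold changes come from the quasi-likelihood test of edgeR over all tested genes, with Benjamini-Hochberg adjusted p-values, and a gene is said to have risen or fallen where its log2 fold change passed 1 in size and its adjusted p was at most 0.05. Nothing in the labels says that the 3 libraries of a genotype came from separate mice, so the p-values measure the spread between libraries, which may be technical.

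The targeted genes were examined first, over all their exons together, since counts per gene do not resolve the deleted ones. Lats1 was at 5672, 5929 and 5940.4 normalized counts in control, at 2090.1, 1923 and 2336 in the libraries labelled LATS1/2-KO, and at 2058, 1844 and 1709 in those labelled LATS1/2-Sox9-KO. It fell by 1.47 on the log2 scale in LATS1/2-KO (SE 0.11, adjusted p = 7.07e-06 by edgeR). Lats2 did not fall in either deletion genotype, at 1039, 865 and 1219.7 normalized counts in control, 1256, 1434 and 1723 in LATS1/2-KO, and 1957, 1580.4 and 1239.7 in LATS1/2-Sox9-KO. Sox9 was at 23313, 19948 and 21534 in control, at 7205, 9506 and 12433 in LATS1/2-KO and at 8812, 6756 and 6459.8 in LATS1/2-Sox9-KO. The libraries labelled LATS1/2-Sox9-KO and LATS1/2-KO overlapped for Sox9 (log2 fold change −0.40, SE 0.19, adjusted p = 0.250 by edgeR). The Lats2 and Sox9 totals thus do not separate the genotypes in the way the labels name them, and the groups are called by their labels throughout.

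Matricellular proteins are secreted into the matrix but act mainly on how cells bind to it and respond to growth factors, whereas fibronectin and the fibrillins assemble into fibrils that other matrix proteins are built on. Several of them are known chiefly as products of stromal and contractile cells and as constituents of the matrix of wounds and breast tumors. LATS1 and LATS2 are kinases of the Hippo pathway that restrain YAP and TAZ, co-activators that bind DNA through TEAD factors.

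Promoter sequence was taken from RefSeq on GRCm38.p6 for 6 of the 10 genes, Sparc, Thbs2, Tnc, Postn, Spp1 and Fbn1. Thbs1, Fn1, Fbn2 and Ccdc80 had no entry in the set of promoter sequences used here. The 250 bases before the annotated start are shown for Tnc, Postn and Spp1. These genes rose in both deletion genotypes and stood lower in every library labelled LATS1/2-Sox9-KO than in every library labelled LATS1/2-KO. Of all genes tested, 13.3% separated downward in this way, and edgeR called none of these genes between the deletion genotypes. Each is written 5′ to 3′ on the strand of the gene, and capitals mark the letters TATAAA.
Tnc, chr4:64047016-64047265, minus strand: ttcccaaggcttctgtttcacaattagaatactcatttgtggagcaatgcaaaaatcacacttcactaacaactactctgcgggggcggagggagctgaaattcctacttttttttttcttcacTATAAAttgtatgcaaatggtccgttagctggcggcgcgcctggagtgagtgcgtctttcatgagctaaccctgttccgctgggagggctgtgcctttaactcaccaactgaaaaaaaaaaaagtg
Postn, chr3:54360857-54361106, plus strand: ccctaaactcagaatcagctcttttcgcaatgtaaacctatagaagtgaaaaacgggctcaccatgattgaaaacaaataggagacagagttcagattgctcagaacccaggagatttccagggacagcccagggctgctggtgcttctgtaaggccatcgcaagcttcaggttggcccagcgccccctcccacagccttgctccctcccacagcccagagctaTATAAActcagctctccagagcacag
Spp1, chr5:104434861-104435110, plus strand: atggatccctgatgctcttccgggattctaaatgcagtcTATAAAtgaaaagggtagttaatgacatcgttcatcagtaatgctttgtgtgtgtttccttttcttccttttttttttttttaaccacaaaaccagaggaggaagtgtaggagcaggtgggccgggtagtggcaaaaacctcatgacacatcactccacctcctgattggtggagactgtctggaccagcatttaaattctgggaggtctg

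The letters TATAAA began 26 bases before the start in Postn, 126 bases before it in Tnc and 211 bases before it in Spp1, and on the opposite strand they were found in Thbs2. On either strand, 12.4% of the 32851 promoter windows of the same length held them. Whether these letters bear on the levels of the genes was not tested. The TEAD letters GGAATG were held by 12.6% of those windows and the AP-1 letters TGANTCA by 6.75%. Neither was found on either strand in any of the 6 windows. Only 1 window per gene was searched, although Tnc, Postn and Spp1 had 2 each. Within 50 bases of the start used lay none of the 3 annotated transcript starts of Fbn1 and 1 of the 9 of Sparc. No measurement of factor binding was made in these samples, and absence of these letters from 250 bases says nothing about binding elsewhere.

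In the libraries labelled LATS1/2-KO, 7 of the 10 genes rose against control and none fell, whereas 17.1% of all tested genes rose and 17.5% fell. The genes that rose were Thbs1, Tnc, Sparc, Postn, Spp1, Ccdc80 and Fn1, by 3.83-fold for Thbs1 up to 114-fold for Fn1 (64.2-fold without LATS1/2-KO replicate 1). Thbs2, Fbn1 and Fbn2 did not pass. The median log2 fold change of the 10 was 3.22, beside 0.04 over all genes tested. Because the 10 genes were chosen with earlier results of these data known, their excess over all genes is a description and not a test. In the libraries labelled LATS1/2-Sox9-KO, the same 7 genes rose against the same control libraries and none fell, beside 17.8% and 19.6% of all genes, with a median of 2.22 beside 0.01. DESeq2 called 7 higher and 1, Thbs2, lower in LATS1/2-KO, beside 16.9% and 18.5% of all genes, and 7 higher and none lower in LATS1/2-Sox9-KO, beside 17.8% and 20.4%. In bulk libraries of sorted cells, a change in the number of cells that express a gene and a change in RNA per cell cannot be told apart.

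**Figure D1:**
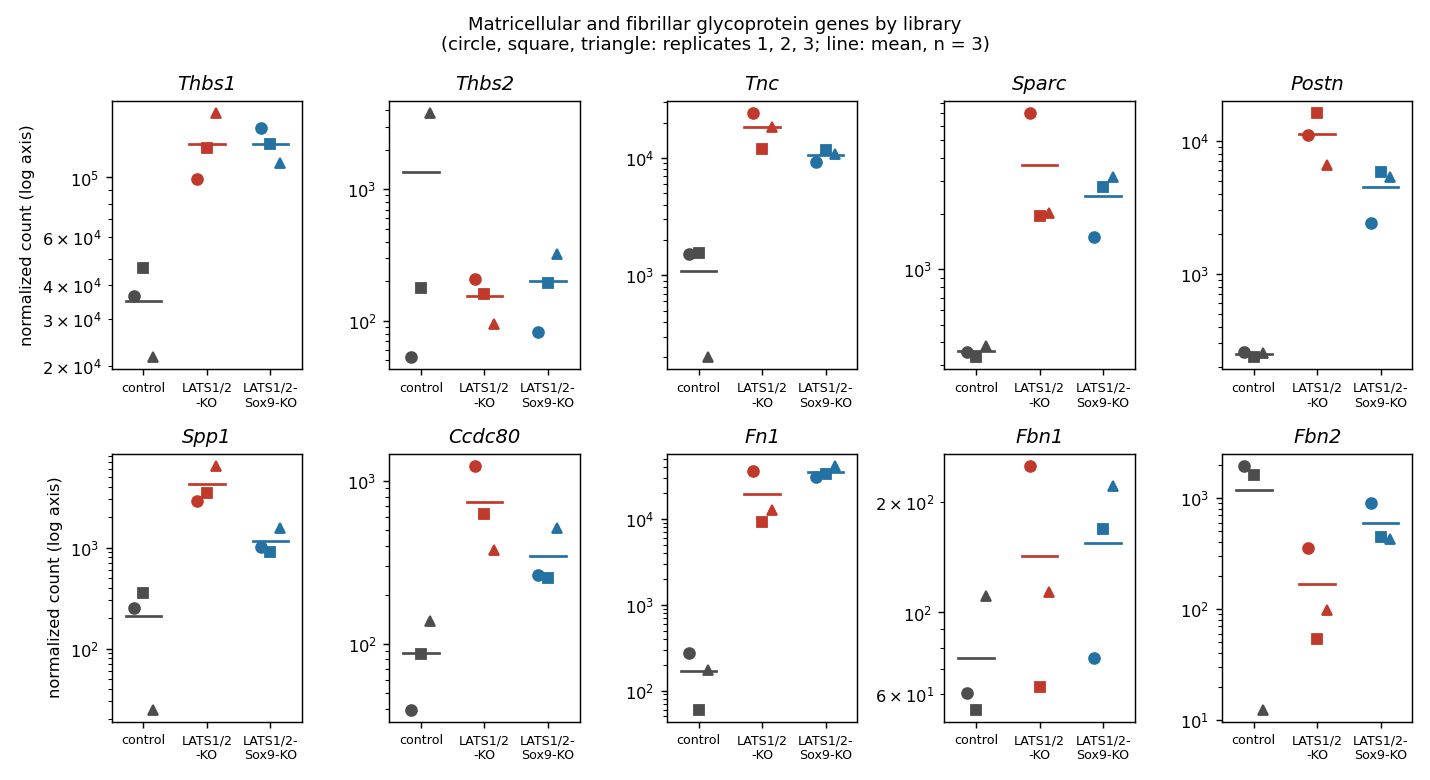
Normalized counts (log axis) of the 10 genes in each of the 9 libraries, by genotype, with a line at the mean of the 3 libraries. For Thbs1, Tnc, Sparc, Postn, Spp1, Ccdc80 and Fn1 every control library lies below every library of both deletion genotypes. Such a separation upward from control was common, with 6068 of all 19357 genes tested in LATS1/2-KO and 6758 in LATS1/2-Sox9-KO. Control replicate 3 stands apart for Thbs2, Tnc, Spp1 and Fbn2.

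Thbs1 encodes thrombospondin 1, a secreted protein that binds CD36 and CD47, activates latent TGF-beta and restrains blood vessel growth (GRCm38, chromosome 2, 118111876 to 118127133, plus strand). It was at 36475, 46298 and 21681 normalized counts in control, at 98972, 128176 and 173372 in LATS1/2-KO and at 152712, 133040 and 113631 in LATS1/2-Sox9-KO. The deletion genotypes overlapped each other and lay above all controls. The log2 fold change against control was 1.94 in LATS1/2-KO (SE 0.28, adjusted p = 0.000278 by edgeR) and 1.93 in LATS1/2-Sox9-KO (SE 0.28, adjusted p = 0.000246). Between the deletion genotypes it was −0.00, with a 95% confidence interval from −0.62 to 0.61, the narrowest interval of the 10 genes in that comparison.

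Thbs2 encodes the related thrombospondin 2 (chromosome 17, 14665500 to 14694235, minus strand). It was at 53.4, 178 and 3805 in control, at 209, 161 and 94.9 in LATS1/2-KO and at 82.6, 195 and 322 in LATS1/2-Sox9-KO. A single library, control replicate 3, was over 10 times as high as any other, and the remaining 8 libraries overlapped. The log2 fold change was −3.12 in LATS1/2-KO (SE 1.26, adjusted p = 0.0576 by edgeR) and −2.75 in LATS1/2-Sox9-KO (SE 1.24, adjusted p = 0.0812), and without control replicate 3 it turned to 0.40 and 0.79. Thbs2 was called lower in LATS1/2-KO by DESeq2 (−3.15, adjusted p = 0.0371). Without control replicate 1 or 2 edgeR called it lower as well, at −3.68 and −3.64 in LATS1/2-KO (adjusted p = 0.0139 and 0.0333) and at −3.31 and −3.27 in LATS1/2-Sox9-KO (adjusted p = 0.0196 and 0.0458), fits in which control replicate 3 was 1 of 2 control libraries.

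Tnc encodes tenascin C, a large glycoprotein made at sites of tissue remodelling (chromosome 4, 63959785 to 64047015, minus strand). It was at 1517, 1549 and 203 normalized counts in control, at 24174.5, 11979 and 18529.7 in LATS1/2-KO and at 9194, 11589 and 10743 in LATS1/2-Sox9-KO. No library of one genotype reached the range of another, with LATS1/2-KO highest. Against control, Tnc was 16.7-fold higher in LATS1/2-KO (log2 fold change 4.06, SE 0.63, adjusted p = 0.000395 by edgeR) and 9.63-fold higher in LATS1/2-Sox9-KO (3.27, SE 0.61, adjusted p = 0.00110).

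Sparc encodes osteonectin, a collagen-binding protein that moderates cell spreading (chromosome 11, 55394500 to 55423183, minus strand). It was at 355, 335 and 385 in control, at 7038, 1950.4 and 2027 in LATS1/2-KO and at 1489.9, 2780.1 and 3168 in LATS1/2-Sox9-KO. The control libraries agreed closely, the deletion genotypes overlapped, and LATS1/2-KO replicate 1 was far above the other libraries of its group. Sparc was 10.3-fold higher than control in LATS1/2-KO (log2 fold change 3.36, SE 0.51, adjusted p = 0.000361 by edgeR) and 6.92-fold higher in LATS1/2-Sox9-KO (2.79, SE 0.50, adjusted p = 0.000887). Without LATS1/2-KO replicate 1 the rise in LATS1/2-KO was 5.57-fold (log2 fold change 2.48, adjusted p = 8.68e-05).

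Postn encodes periostin, an integrin ligand that supports collagen cross-linking (chromosome 3, 54361109 to 54391037, plus strand). It was at 259.8, 238 and 254 in control, at 11099, 16150.5 and 6547 in LATS1/2-KO and at 2388, 5830.2 and 5315 in LATS1/2-Sox9-KO. The controls lay within 1.09-fold of each other, and the deletion genotypes did not overlap. The log2 fold change was 5.49 in LATS1/2-KO (44.9-fold, SE 0.43, adjusted p = 7.30e-06 by edgeR) and 4.17 in LATS1/2-Sox9-KO (18.0-fold, SE 0.41, adjusted p = 1.82e-05).

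Spp1 encodes osteopontin, a phosphoprotein that binds integrins and CD44 (chromosome 5, 104435118 to 104441050, plus strand). It was at 254, 352 and 24.9 in control, at 2929, 3460.2 and 6464 in LATS1/2-KO and at 1023, 901 and 1558 in LATS1/2-Sox9-KO. As for Tnc, the 3 genotypes did not overlap and control replicate 3 was the lowest library. Spp1 was 20.3-fold higher in LATS1/2-KO (log2 fold change 4.34, SE 0.72, adjusted p = 0.000606 by edgeR) and 5.50-fold higher in LATS1/2-Sox9-KO (2.46, SE 0.67, adjusted p = 0.00978), the latter 8.26-fold without control replicate 2 (adjusted p = 0.00971). A predicted gene on the same strand, Gm42793, shares 18.8% of its exon length, so part of the value is uncertain.

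Ccdc80 encodes a secreted matrix protein that supports cell adhesion (chromosome 16, 45093402 to 45128077, plus strand). It was at 39.4, 86.2 and 138 in control, at 1236, 626 and 375 in LATS1/2-KO and at 265, 254 and 516 in LATS1/2-Sox9-KO. All deletion libraries were above all controls, and the deletion genotypes overlapped. The log2 fold change was 3.08 in LATS1/2-KO (SE 0.56, adjusted p = 0.00105 by edgeR) and 1.98 in LATS1/2-Sox9-KO (SE 0.54, adjusted p = 0.0101).

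Fn1 encodes fibronectin, whose fibrils are an early scaffold for collagen and other matrix proteins (chromosome 1, 71585520 to 71653200, minus strand). It was at 274, 60.1 and 175 in control, at 36146.5, 9159 and 12562 in LATS1/2-KO and at 30299.5, 32896.5 and 41373 in LATS1/2-Sox9-KO. No control library came near the deletion libraries, and those of LATS1/2-KO were spread 3.95-fold where those of LATS1/2-Sox9-KO were spread 1.37-fold. Of the 10 genes, Fn1 had the largest fold change against control in both deletion genotypes, with a log2 fold change of 6.83 in LATS1/2-KO (114-fold, SE 0.70, adjusted p = 3.08e-05 by edgeR) and 7.68 in LATS1/2-Sox9-KO (205-fold, SE 0.72, adjusted p = 1.42e-05). Without LATS1/2-KO replicate 1, the highest library of its group, the value in LATS1/2-KO was 6.01 (64.2-fold, adjusted p = 2.07e-05).

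The fibrillins, which form the microfibrils that carry elastin and latent TGF-beta complexes, did not share this pattern. Fbn1 (chromosome 2, 125300594 to 125507993, minus strand) was at 60.3, 54.4 and 111 in control, at 251, 62.7 and 114 in LATS1/2-KO and at 75.2, 168 and 220.4 in LATS1/2-Sox9-KO. The 3 genotypes overlapped, with log2 fold changes against control of 0.92 (SE 0.56, adjusted p = 0.188 by edgeR) and 1.04 (SE 0.56, adjusted p = 0.136), the former 0.24 without LATS1/2-KO replicate 1, and an antisense gene, Gm9913, overlaps 20.1% of its exon length. Fbn2 (chromosome 18, 58008623 to 58210487, minus strand) was at 1947, 1593 and 12.4 in control, at 351, 53.4 and 97.6 in LATS1/2-KO and at 894, 447 and 429.9 in LATS1/2-Sox9-KO. Control replicates 1 and 2 were the highest libraries and control replicate 3 the lowest of all 9. The log2 fold change of Fbn2 was −2.83 in LATS1/2-KO (SE 1.20, adjusted p = 0.0686 by edgeR) and −1.005 in LATS1/2-Sox9-KO (SE 1.12, adjusted p = 0.469). Fbn2 was called lower in LATS1/2-KO without control replicate 3, at −3.43 (adjusted p = 0.00250), and without LATS1/2-KO replicate 1, at −3.97 (adjusted p = 0.0399).

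**Figure D2:**
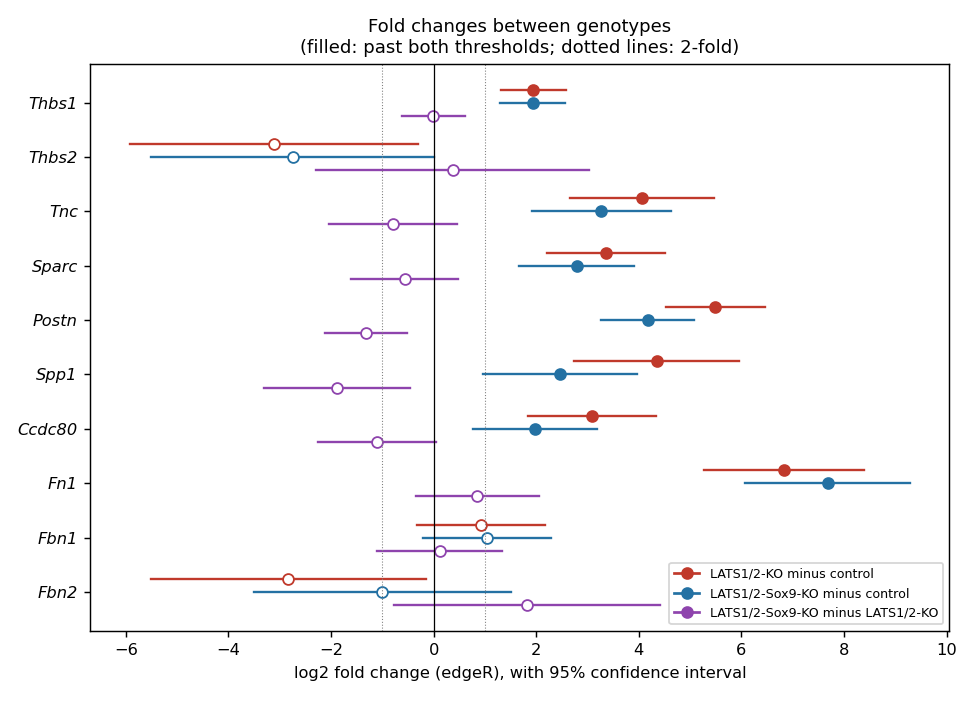
Log2 fold changes of the 10 genes from edgeR (points) with 95% confidence intervals (lines), for each deletion genotype against control and for the deletion genotypes against each other. Filled points passed both thresholds: 7 genes in each comparison with control, and none between LATS1/2-Sox9-KO and LATS1/2-KO.

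The libraries labelled LATS1/2-Sox9-KO were then compared with those labelled LATS1/2-KO. By the labels this comparison addresses the addition of Sox9 deletion, although the Sox9 totals of these libraries overlapped. None of the 10 genes passed both thresholds by edgeR, beside 1.55% of all genes that rose and 2.16% that fell. At an unadjusted p of 0.05, 2 of the 10 passed, Postn and Spp1, beside 22.6% of all genes, a share near that of the 10. DESeq2 called 1, Postn, lower, beside 3.85% of all genes lower and 2.57% higher. The median log2 fold change of the 10 was −0.29, beside −0.02 over all genes. The libraries did not overlap for Tnc, Postn and Spp1, which were lower in LATS1/2-Sox9-KO, and for Fbn2, which was higher, that is 3 and 1 of 10 genes, beside 13.3% of all genes with such a separation downward and 14.6% upward.

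Postn had a log2 fold change of −1.32 between these genotypes (95% confidence interval −2.12 to −0.52, adjusted p = 0.0574 by edgeR), and it was called lower without LATS1/2-KO replicate 3, at −1.59 (adjusted p = 0.0487). For Spp1 the value was −1.88 (−3.31 to −0.46, adjusted p = 0.114), and it was called lower without control replicate 3, at −1.86 (adjusted p = 0.0137). Tnc was at −0.79 (−2.04 to 0.45, adjusted p = 0.444) and Ccdc80 at −1.11 (−2.26 to 0.04, adjusted p = 0.236), so that for these genes a decrease of over 2-fold and no change both lie within the intervals. Fn1 was at 0.85 (−0.34 to 2.05, adjusted p = 0.385), and without LATS1/2-KO replicate 1 it was called higher, at 1.68 (adjusted p = 0.0491). Sparc was at −0.57 (−1.60 to 0.47, adjusted p = 0.522), which turned to 0.32 without that library. Thbs2 at 0.37 (−2.28 to 3.02), Fbn1 at 0.12 (−1.10 to 1.34) and Fbn2 at 1.82 (−0.77 to 4.42, adjusted p = 0.393) had intervals too wide to bound the difference at 2-fold, and Fbn2 was at 2.97 without LATS1/2-KO replicate 1.

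Levels of different genes were compared per kilobase of exon. Thbs1 held most of the summed per-kilobase level of the 10 genes in every library, with 87.9% ± 5.01 (SD, n = 3) in control, 70.1% ± 9.92 in LATS1/2-KO and 77.2% ± 5.77 in LATS1/2-Sox9-KO. The summed level itself was 6447 ± 2002 normalized counts per kilobase in control, 31063 ± 5433 in LATS1/2-KO and 28300 ± 2057 in LATS1/2-Sox9-KO. Fn1 was above only Fbn1 in control, with 14.5 ± 9.15 normalized counts per kilobase, came after Thbs1, Spp1 and Tnc in LATS1/2-KO, with 1651 ± 1258, and was next to Thbs1 in LATS1/2-Sox9-KO, with 2983 ± 496. Its share of the sum was 0.253% ± 0.166 in control, 5.60% ± 4.79 in LATS1/2-KO and 10.7% ± 2.55 in LATS1/2-Sox9-KO, shares that were not tested. Without LATS1/2-KO replicate 1 the level of Fn1 in LATS1/2-KO was 929 normalized counts per kilobase, below that of Postn (1304), and its share was 2.84%.

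In control the order of mean per-kilobase levels after Thbs1 was Thbs2 (192 ± 304), Tnc (140.2 ± 98.8), Spp1 (128 ± 102), Sparc (94.5 ± 6.64), Fbn2 (89.6 ± 78.0), Postn (28.8 ± 1.29), Ccdc80 (20.5 ± 11.5), Fn1 and Fbn1 (6.20 ± 2.55). No neighbours in this order after Thbs1 differed beyond their spread. The place of Thbs2 rests on control replicate 3, without which it was at 16.5, and Spp1 was at 84.6 without control replicate 2. In LATS1/2-KO the genes next to Thbs1 were Spp1 (2600 ± 1157), Tnc (2345 ± 785), Fn1, Postn (1295 ± 552) and Sparc (969 ± 770), again with neighbours within their spread, and Sparc was at 525 without LATS1/2-KO replicate 1. In LATS1/2-Sox9-KO Fn1 lay clear of Tnc (1352 ± 156), and Tnc of Spp1 (704 ± 212), Sparc (655 ± 232) and Postn (518 ± 213), which were within their spread. Ccdc80, Thbs2, Fbn2 and Fbn1 held the lowest places in both deletion genotypes, with Fbn1 last in all 3 genotypes, though Fbn2 was last in LATS1/2-KO without replicate 1.

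**Figure D3:**
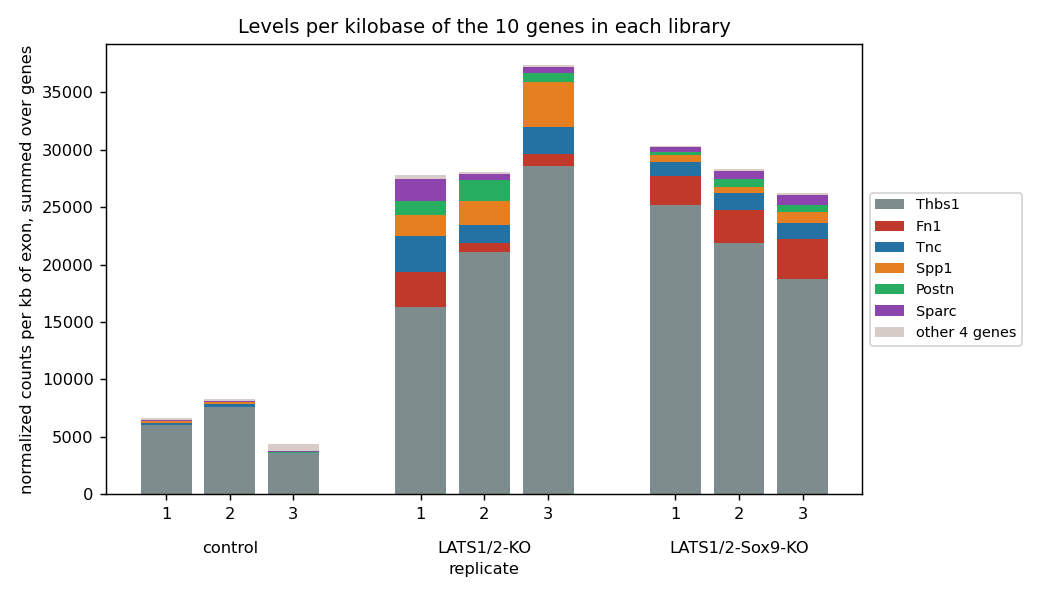
Normalized counts per kilobase of exon in each library, stacked by gene, with Thbs2, Ccdc80, Fbn1 and Fbn2 joined as the other 4 genes. Thbs1 is the largest part of each bar, and Fn1 is a visible part only in the deletion genotypes.

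Markers of other cells were examined beside these results, because several of the genes are also products of stromal cells. Counts of markers called against control stand beside 17.1% of all genes that rose and 17.5% that fell in LATS1/2-KO. In LATS1/2-Sox9-KO these shares were 17.8% and 19.6%. Krt18, a keratin of luminal cells, was present in every library, at 239706 to 257940 normalized counts in control, 384348 to 428714 in LATS1/2-KO and 638918 to 789495 in LATS1/2-Sox9-KO. Hormone receptor genes of luminal cells fell, with Pgr between 17143 and 30018 in control and between 121 and 658 in LATS1/2-KO (log2 fold change −5.91, SE 0.60, adjusted p = 2.99e-05 by edgeR, and −6.56 without LATS1/2-KO replicate 1). Prlr, the prolactin receptor, fell by 4.81 (SE 0.50, adjusted p = 3.61e-05, and the value was −5.55 without LATS1/2-KO replicate 1), and Cited1, a co-regulator of estrogen response, by 5.19 (SE 1.02, adjusted p = 0.00175, and the value was −6.77 without LATS1/2-KO replicate 1). Of the 12 luminal markers, none rose and 6 fell in LATS1/2-KO, and 2 rose (Krt8 and Krt18) and 8 fell in LATS1/2-Sox9-KO. Between the deletion genotypes 1 luminal marker, Pgr, fell (−3.43, SE 0.60, adjusted p = 0.0136), or −2.77 without LATS1/2-KO replicate 1, a call lost without LATS1/2-Sox9-KO replicate 2 (adjusted p = 0.0589). DESeq2 called 5 of the 12 luminal markers lower in this comparison and 0 higher, beside 3.85% of all genes lower and 2.57% higher.

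Of the 10 myoepithelial markers, 4 rose and 3 fell in LATS1/2-KO, and 3 rose and 4 fell in LATS1/2-Sox9-KO, beside the same shares of all genes. Krt14, a basal keratin, was at 501 to 909 in control and 139506 to 252969 in LATS1/2-KO, whereas Trp63, a regulator of basal identity, fell by 4.82 on the log2 scale (SE 0.71, adjusted p = 0.000291). Of the contractile genes, Acta2, Cnn1 and Tagln rose and Myh11 and Mylk fell in LATS1/2-KO. Acta2, smooth muscle actin, was at 974, 992 and 662 in control, at 8402, 15186 and 11128 in LATS1/2-KO and at 3904, 5431 and 4427 in LATS1/2-Sox9-KO, and rose 13.2-fold against control in LATS1/2-KO (log2 fold change 3.72, SE 0.26, adjusted p = 3.88e-06). Its 3 genotypes did not overlap, with LATS1/2-KO highest, whereas Myh11 was lowest in LATS1/2-KO, at 120, 130 and 167, against 184, 377 and 266 in LATS1/2-Sox9-KO and 691, 650 and 596 in control. Between the deletion genotypes none of the 10 myoepithelial markers rose and 3 fell, beside the 2.16% of all genes given above, and the median log2 fold change of the list was 0.18, with Myh11 at 0.99, Krt5 at 1.53 and Actg2 at 1.38, none of them called. Those that fell were Acta2 (−1.34, SE 0.23, adjusted p = 0.0135), Cnn1, calponin (−2.09, SE 0.21, adjusted p = 0.00149), and Oxtr, the oxytocin receptor (−2.55, SE 0.59, adjusted p = 0.0345). The call of Oxtr was lost without any library except LATS1/2-KO replicate 1 and control replicate 3, with adjusted p from 0.0520 to 0.1095, and its value was −1.50 without LATS1/2-KO replicate 2. The part of contractile cells in the levels of Tnc, Postn and Spp1 was not tested.

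Of the 14 fibroblast markers, 6 rose and 1, Dcn, fell in LATS1/2-KO, beside 17.1% and 17.5% of all genes. In LATS1/2-Sox9-KO 5 rose and 2 fell, beside 17.8% and 19.6%. Between the deletion genotypes edgeR called none. DESeq2 called 2 lower there, Pdgfra (−1.54, adjusted p = 0.0121) and Dpp4 (−1.31, adjusted p = 0.0309), beside 3.85% of all genes. The summed level of the 14 markers was 2798, 4813 and 9923 normalized counts in control, 10764, 3408 and 4008 in LATS1/2-KO and 3443, 4682 and 8240.5 in LATS1/2-Sox9-KO. Without the most counted gene of each library it was 1171, 1522 and 1761 in control, 6698, 2164 and 2847 in LATS1/2-KO and 2207, 3193 and 5109.9 in LATS1/2-Sox9-KO. The gene left out was Dcn in control and LATS1/2-KO replicate 3, and Col3a1 or Col1a1 in the other libraries. These reduced sums thus cover different genes, and although higher in the deletion libraries they do not compare like with like. The full sums overlapped. Col3a1 was highest in LATS1/2-KO replicate 1 (4067) and LATS1/2-Sox9-KO replicate 3 (3131), the libraries in which 7 and 6 of the 10 genes reached the top of their group. The log2 fold change of Col3a1 in LATS1/2-KO was 3.14 (SE 0.78, adjusted p = 0.00651), or 2.10 without LATS1/2-KO replicate 1 and 4.03 without control replicate 3. That of Col1a2 was 2.31 (SE 0.62, adjusted p = 0.00992), or 1.28 without LATS1/2-KO replicate 1, and that of Serpinf1, a secreted serpin, was 2.64 (SE 0.65, adjusted p = 0.00614). Pdgfra, which defines many fibroblasts, was at 299 to 418 in control, 192 to 368 in LATS1/2-KO and 35.3 to 162 in LATS1/2-Sox9-KO. The part of fibroblast RNA in the levels of Sparc, Postn, Fn1 and Ccdc80 was not tested.

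Of the 16 leukocyte markers, 12 were tested, of which 4 rose and none fell in LATS1/2-KO, beside 17.1% and 17.5% of all genes. In LATS1/2-Sox9-KO 7 rose and 1 fell, beside 17.8% and 19.6%. Between the deletion genotypes 1, Cd14, fell (−1.11, SE 0.23, adjusted p = 0.0243), a call lost without LATS1/2-KO replicate 2 or 3 or any LATS1/2-Sox9-KO library (adjusted p from 0.0601 to 0.1098). The most counted, Cd14, was at 14437, 13684 and 7231 in control and at 11799, 13077.5 and 10723 in LATS1/2-KO. Without it the summed level was 1200.4, 883 and 811 in control, 5438, 3516 and 2309 in LATS1/2-KO and 3953, 4057 and 5723 in LATS1/2-Sox9-KO. Csf1r, a receptor of macrophages, was most of that sum in the deletion libraries but not in control, where Cd68, a lysosomal protein of macrophages, was higher in each library (398 to 406). Csf1r was at 128 to 208 in control, 1753 to 2804 in LATS1/2-KO and 2716 to 3875 in LATS1/2-Sox9-KO. The genes that rose in LATS1/2-KO were Csf1r (14.6-fold, adjusted p = 3.27e-06) and the complement genes C1qa, C1qb and C1qc, which macrophages express. C1qb had the largest change of the list, at 10.4, 4.54 and 18.7 in control, 351, 123 and 82.1 in LATS1/2-KO and 138, 91.7 and 326 in LATS1/2-Sox9-KO. It rose 16.5-fold against control in LATS1/2-KO (log2 fold change 4.04, SE 0.77, adjusted p = 0.00138), and 9.17-fold without LATS1/2-KO replicate 1. C1qa was 8.18-fold higher (adjusted p = 0.00344) and C1qc 12.9-fold (adjusted p = 0.00241), or 4.78-fold and 6.55-fold without LATS1/2-KO replicate 1. Ptprc, which encodes the pan-leukocyte antigen CD45, was at 40.6, 55.6 and 17.4 in control, 166, 34.7 and 10.9 in LATS1/2-KO and 84.5, 29.9 and 107 in LATS1/2-Sox9-KO, and Cd3e was at 0 in all 9 libraries. Osteopontin is also a macrophage product. Among the LATS1/2-KO libraries Spp1 was highest in replicate 3, where Ptprc and Csf1r were lowest, and among the LATS1/2-Sox9-KO libraries it was highest in replicate 3, where Ptprc and Csf1r were highest. The part of leukocyte RNA in the level of Spp1 was not tested.

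Of the 6 adipocyte markers, 4 rose in LATS1/2-KO and 2 in LATS1/2-Sox9-KO, beside 17.1% and 17.8% of all genes, and none fell. Adipoq was at 2.01, 294 and 163 normalized counts in LATS1/2-KO and at 0.928, 97.7 and 42.8 in LATS1/2-Sox9-KO, with at most 3.73 in control. Cidec, of fat droplets, had the largest fitted change of the list, at 0, 394 and 209 in LATS1/2-KO and at 0, 89.7 and 76.5 in LATS1/2-Sox9-KO, with 1 count in all control libraries together. Fabp4, a fatty acid carrier, rose by 2.599 in LATS1/2-KO (SE 0.89, adjusted p = 0.0304), or 1.80 without LATS1/2-KO replicate 2. Without control replicate 2 the calls of Adipoq and Cidec were lost (adjusted p = 0.0511 and 0.0539), and that of Fabp4 was lost without any control library or LATS1/2-KO replicate 2 (adjusted p from 0.0660 to 0.121). The summed adipocyte level was 631, 498 and 521 in control, 1085, 5855 and 2689.6 in LATS1/2-KO and 429, 2118 and 1987 in LATS1/2-Sox9-KO. Replicate 1 of each deletion genotype thus had Adipoq near 0. The part of adipocyte RNA in the levels of the 10 genes was not tested. Of the 10 endothelial and pericyte markers, 2 rose and 3 fell in LATS1/2-KO, beside 17.1% and 17.5% of all genes. In LATS1/2-Sox9-KO 1 rose and 4 fell, beside 17.8% and 19.6%. The most counted, Notch3, was at 16615 to 21687 in control and 1554 to 4051 in LATS1/2-KO. Kdr, an endothelial VEGF receptor, was 2.43 higher on the log2 scale (SE 0.74, adjusted p = 0.0179), or 3.06 without control replicate 3, a call lost without LATS1/2-KO replicate 3 (adjusted p = 0.0598). Rgs5, a pericyte gene, fell by 2.28 (SE 0.69, adjusted p = 0.0175). Between the deletion genotypes 1 gene of this list fell, Tek, a call lost without LATS1/2-Sox9-KO replicate 2 (adjusted p = 0.0537), and no adipocyte marker was called.

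Control replicate 3 differed from the other control libraries in more than the 10 genes. Besides its low Tnc, Spp1 and Fbn2 and its high Thbs2, it had the highest Pgr (30018, beside 17143 and 20895), Esr1 (12660, beside 8515 and 8018.5) and Dcn (8162, beside 1626 and 3291) and the lowest Elf5 (2413, beside 5851 and 6382) and Kit (12446, beside 22019 and 21895). Elf5 and Kit mark luminal progenitors, and Esr1 and Pgr mark hormone-sensing luminal cells. The part of this difference in the levels of the 10 genes was not tested. With LATS1/2-KO replicate 1 and LATS1/2-Sox9-KO replicate 3 both left out, a choice made after seeing the data, 7 genes rose and none fell against control in each deletion genotype and none was called between them.

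**Figure D4:**
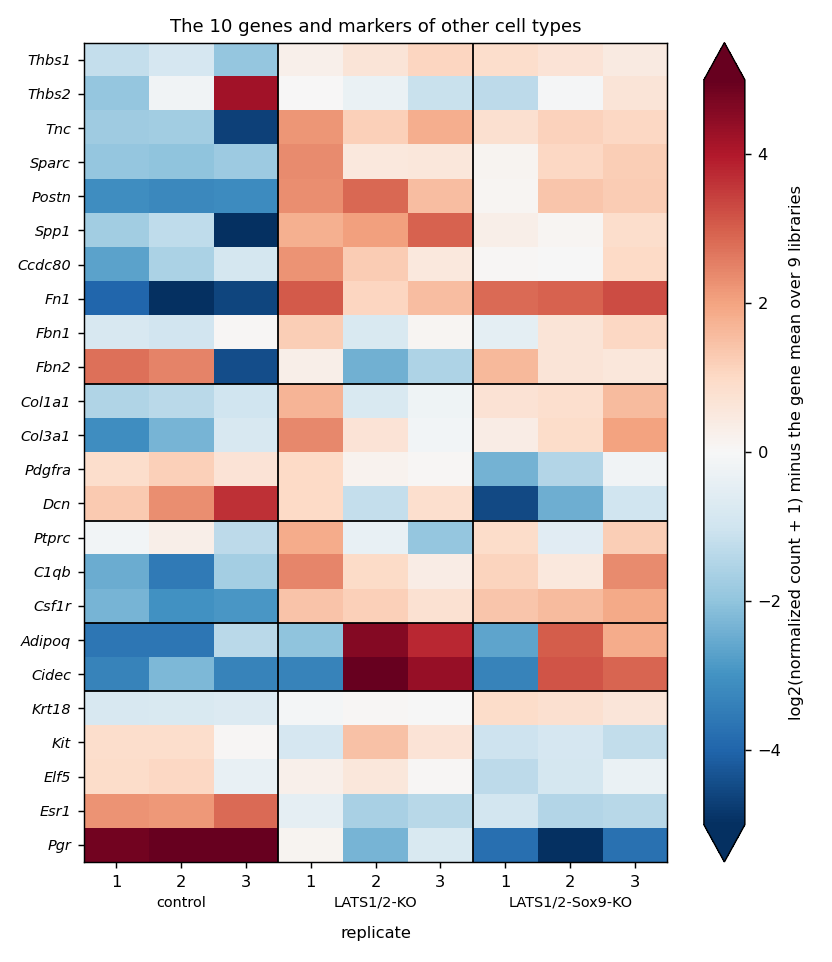
Log2(normalized count + 1) of the 10 genes and of 14 markers, each less its own mean over the 9 libraries (color), with libraries in columns. From top to bottom the blocks are the 10 genes, fibroblast, leukocyte, adipocyte and luminal markers, and control replicate 3 and LATS1/2-KO replicate 1 can be seen to differ from the libraries beside them.

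Related matricellular genes moved in both directions. Over all genes tested, 17.1% rose and 17.5% fell in LATS1/2-KO, with a median of 0.04 on the log2 scale. In LATS1/2-Sox9-KO 17.8% of all genes rose and 19.6% fell. Of 18 listed relatives, 12 were tested, of which 6 rose and 3 fell in LATS1/2-KO (median 0.94 on the log2 scale, also 0.94 with genes lacking counts in one group set at the bound that 3 counts per library give), and 4 rose and 5 fell in LATS1/2-Sox9-KO. Of the 6, Dmp1 rests on 1 library, with 164, 5 and 1 counts in LATS1/2-KO and 0 in each control library. At the same floor its bound was 16.0-fold higher, but 0.73-fold without LATS1/2-KO replicate 1. Among those that rose in LATS1/2-KO, Sparcl1, a relative of Sparc, was at 78.9, 120.2 and 131 in control, 2157, 995 and 918 in LATS1/2-KO and 106, 267 and 403 in LATS1/2-Sox9-KO. Tnxb, a tenascin that organizes collagen and the most counted relative in control, was at 21181, 12442 and 44777 there and at 120.4, 20.3 and 144 in LATS1/2-KO, so that it fell while Tnc rose (log2 fold change −8.11, SE 0.83, adjusted p = 3.20e-05 by edgeR, and −7.49 without control replicate 3). Smoc2, of the Sparc family, fell by 5.14 (SE 0.60, adjusted p = 7.06e-05). Spock1, a proteoglycan of the same family, was at 336, 556 and 52.3 in control and had no count in any deletion library, which makes it at least 114-fold lower in LATS1/2-KO at a floor of 3 counts per library, or at least 70.3-fold without control replicate 2. Between LATS1/2-Sox9-KO and LATS1/2-KO none rose and 2 fell, Sparcl1 by 2.39 (SE 0.49, adjusted p = 0.0223) and Smoc1 by 1.72 (SE 0.35, adjusted p = 0.0225), calls that were lost without LATS1/2-Sox9-KO replicate 2 (adjusted p = 0.0901 and 0.0936) and, for Smoc1, without LATS1/2-Sox9-KO replicate 1 (0.0613).

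Genes of microfibrils and elastic fibers, partners of the fibrillins, moved in both directions. Of 23 listed, 21 were tested, of which 7 rose and 6 fell in LATS1/2-KO (median −0.04), and 7 rose and 7 fell in LATS1/2-Sox9-KO. Efemp1, a fibulin, was at 36.0, 47.6 and 14.9 in control and at 5433, 3196 and 3148 in LATS1/2-KO (log2 fold change 6.88, SE 0.39, adjusted p = 1.71e-06 by edgeR). Fbln5, which tethers elastin to cells, rose by 4.63 (SE 0.33, adjusted p = 4.68e-06) and Eln, elastin itself, by 3.96 (SE 0.35, adjusted p = 1.39e-05). The most counted genes of the list, Ltbp1 and Ltbp3, which hold latent TGF-beta on fibrillin, fell, from 25607, 45833 and 61966 to 12980, 5789 and 8696 for Ltbp1. In LATS1/2-Sox9-KO against LATS1/2-KO, Fbln2 rose by 2.07 (SE 0.31, adjusted p = 0.00821), and Eln fell by 1.79 (SE 0.32, adjusted p = 0.0141) and Fbln5 by 1.41 (SE 0.28, adjusted p = 0.0206). The calls of Eln and Fbln5 were lost without LATS1/2-Sox9-KO replicate 2 (adjusted p = 0.0687 and 0.0901), and that of Fbln5 also without LATS1/2-KO replicate 3 (0.0779) or LATS1/2-Sox9-KO replicate 1 (0.0573).

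Of the 18 listed cell surface receptors that bind these proteins, 8 rose and 5 fell in LATS1/2-KO (median 1.05 on the log2 scale), and 6 rose and 6 fell in LATS1/2-Sox9-KO. Itgb6, the beta subunit of an integrin that binds fibronectin and latent TGF-beta, was at 705, 875 and 1404 in control, 14220.5, 9493 and 9798 in LATS1/2-KO and 22050, 17655 and 15885 in LATS1/2-Sox9-KO (log2 fold change in LATS1/2-KO 3.49, SE 0.28, adjusted p = 8.04e-06 by edgeR). Cd44, a receptor of osteopontin and hyaluronan, rose by 2.68 (SE 0.33, adjusted p = 9.54e-05), from 3734 to 9147 in control to 32844 to 60192 in LATS1/2-KO. Lrp1, an endocytic receptor of thrombospondins, fell by 2.86 (SE 0.26, adjusted p = 1.70e-05). The most counted receptor genes were Sdc4, a fibronectin-binding proteoglycan, in control, at 76172 to 90612, and Itgb1, the integrin subunit beta 1, in LATS1/2-KO, at 119978 to 129534. Cd36, a receptor of thrombospondin 1, is also in the adipocyte list, and was highest in LATS1/2-KO in replicate 2 (785), as Adipoq was.

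Between LATS1/2-Sox9-KO and LATS1/2-KO, 1 receptor gene rose and 2 fell. Itga8, a fibronectin and osteopontin receptor subunit, was at 1332, 1395 and 1221 in LATS1/2-KO and 180, 314 and 401 in LATS1/2-Sox9-KO (log2 fold change −2.14, SE 0.26, adjusted p = 0.00376 by edgeR). Itgb8, a subunit that binds latent TGF-beta, was at 3799, 3486 and 3426 and at 983, 1009 and 1211 (−1.74, SE 0.21, adjusted p = 0.00403). Sdc1 rose by 1.33 (SE 0.22, adjusted p = 0.0121), a call lost without LATS1/2-KO replicate 3 (adjusted p = 0.0503). These lists share no gene with the 10, and each count is read beside the background shares of called genes given above.

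**Figure D5:**
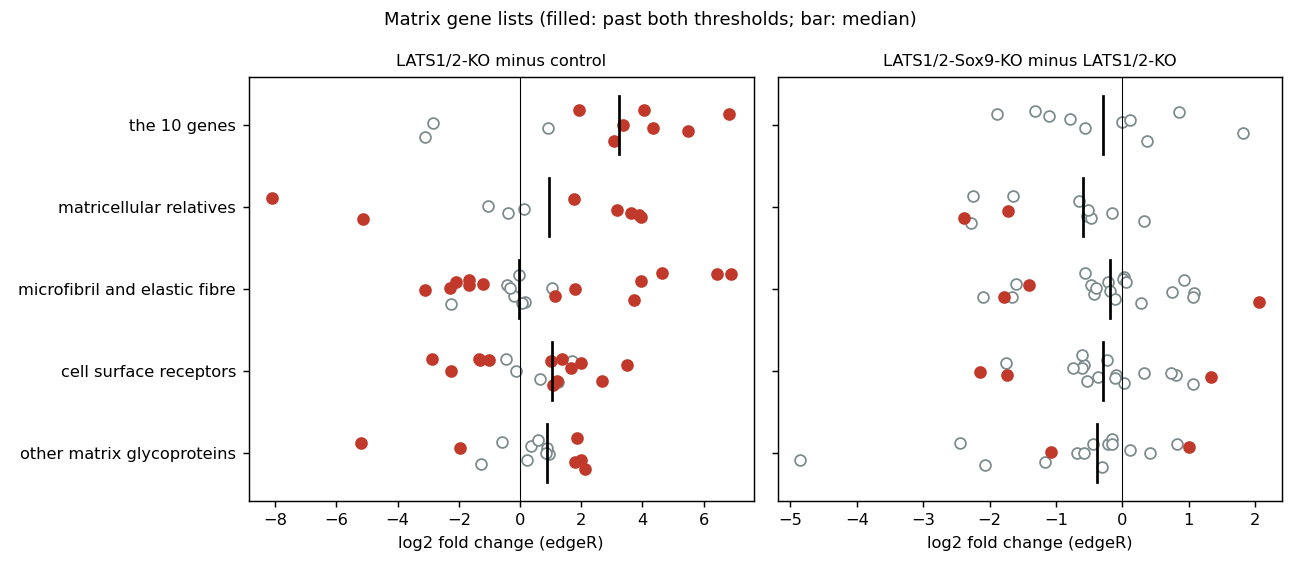
Log2 fold changes from edgeR of the 10 genes and of 4 lists of related matrix and receptor genes, for LATS1/2-KO against control and for LATS1/2-Sox9-KO against LATS1/2-KO. Each point is a tested gene, filled where it passed both thresholds, bars mark list medians (3.22 and −0.29 for the 10 genes), and genes with no count in a whole group are not drawn.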

How the data were processed

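The authors isolated RNA from FACS-sorted EYFP+ cells and made libraries with a TruSeq RNA kit. Per the study's methods and processing notes, reads were aligned to mm10 with STAR 2.6.0c and counted with featureCounts (Subread 1.6.2) as uniquely aligned proper pairs on non-mitochondrial Ensembl genes, on the same strand. The deposited values are whole-number counts per gene and library, made by the authors, without normalization or pooling.

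Symbols were matched for 55190 of 55450 identifiers with GENCODE M21 on GRCm38, which also gave coordinates, counted from 1, and exon lengths. As the authors' annotation was a later Ensembl release, levels per kilobase are approximate. Counts were modelled with edgeR 4.0.16 under R 4.3.3, using filterByExpr, TMM factors and one model of the 3 group means over all 9 libraries, with Benjamini-Hochberg adjustment over 19357 genes. Replicates of a group differed by a chi-square per gene of 16.4 to 129, above sampling noise. DESeq2 1.42.0 and the other alternatives are given in the closing section.

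The 10 genes and the gene lists were chosen with earlier results of these data known, and the lists were written from general knowledge. Named were all 10 genes, the targeted genes, and in each list the most counted gene and up to 3 called genes of largest change whose higher group averaged 100 normalized counts or more. Named beyond this rule after their values were seen were Sparcl1 against control, C1qa, Dmp1, Dpp4, Pdgfra, Tagln, Myh11, Mylk, Krt5, Actg2 and Tek. The libraries' values of Ptprc, Cd68, Cd3e, Cd36, Esr1, Elf5, Kit and Krt8 were also named in this way. Counts were simulated for LATS1/2-KO against control with 200 of 19357 genes changed, far fewer than were called in the data. Recovery was judged by an adjusted p of at most 0.05 alone, without the fold threshold, so it does not measure the calling rule used here. On these counts edgeR recovered 37% of genes changed 2-fold and 72% of those changed 4-fold, with no sign error. Of the 19157 genes left unchanged, 5 passed. DESeq2 recovered 59% and 86%, and 38 unchanged genes passed.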

Additional observations from a re-analysis of the deposited data

How the results depend on the processing

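Of the 30 fold changes of the 10 genes, 18 kept their direction and their side of the thresholds under all 19 alternatives. Against control, the genes called numbered 7 to 8 in LATS1/2-KO and 7 to 8 in LATS1/2-Sox9-KO when each library was left out in turn. DESeq2 called 8 and 7, with Thbs2 added in LATS1/2-KO. Without the filter they numbered 9 and 8, since Thbs2 in both and Fbn2 in LATS1/2-KO were called lower. A test against a 2-fold change (glmTreat) left 5 in LATS1/2-Sox9-KO, losing Spp1 and Ccdc80. Between LATS1/2-Sox9-KO and LATS1/2-KO, where none was called, DESeq2 called 1 (Postn), no filter 2 (Postn and Spp1), at least 10 counts in every library 1 (Postn), a fit of these 2 groups alone 1 (Spp1), and leaving out a library 0 to 1. Over all genes, glmTreat called 4005 in LATS1/2-KO and 4708 in LATS1/2-Sox9-KO against control and 32 between them, where edgeR called 6705, 7248 and 719. Of the list genes named as called between the deletion genotypes, glmTreat called only Cnn1, and in LATS1/2-KO against control it lost Col1a2, Kdr, Rgs5, Fabp4, Tagln and Mylk (adjusted p from 0.0565 to 0.117). In the fit of these 2 groups alone the call of Oxtr was lost (adjusted p = 0.0626). DESeq2 called 1259 between them among all genes with counts, a larger set than the 19357 genes tested by edgeR, and leaving out a library 201 to 1079, with the fewest without LATS1/2-Sox9-KO replicate 2 and the most without LATS1/2-KO replicate 1. The cause of these differences was not tested.

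The sign turned in these cases, and none of the turned values was called. Between the deletion genotypes, Thbs1 was at 0.0059 by DESeq2, 0.0046 with RLE factors, 0.0030 with TMM factors computed without the top 100 genes, 0.028 without a filter and −0.18 to 0.23 when a library was left out. Thbs2 was at −0.28 with the replicate block and at −0.14 to 0.77 with a library left out. In the same way Fbn1 ranged from −0.20 to 0.81, Lats2 from −0.036 to 0.29 and Sparc from −0.86 to 0.32, and Sparc was at 0.10 with the 2 libraries rich in stromal and leukocyte markers left out. Against control, Thbs2 ranged from −3.68 to 0.40 in LATS1/2-KO and from −3.31 to 0.79 in LATS1/2-Sox9-KO, with the highest values without control replicate 3.

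Replicate numbers are shared by the labels, which do not say whether they pair the libraries. The correlation of deviations between same-numbered libraries was −0.06 to −0.02 for LATS1/2-KO with control and 0.02 to 0.04 for LATS1/2-Sox9-KO with control. For the deletion genotypes it was 0.10, 0.15 and −0.03 for replicates 1, 2 and 3, which does not settle whether these libraries were paired. With the replicate block, 7, 0 and 7 of the 10 genes and 6521, 601 and 7087 of all genes were called. The block lost the calls of Fabp4 in LATS1/2-KO against control (adjusted p = 0.0621) and of Vwa1 between the deletion genotypes (0.0721), and no other call of a gene named by the rule. The levels per kilobase moved by less than 1 SD under RLE and upper-quartile factors. With n = 3 libraries and groups that may not be separate mice, the intervals between the deletion genotypes remained wide.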

Other observations

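Other glycoproteins of basement membranes and interstitial matrix were listed as 18 genes, of which 16 were tested. Against control, 6 rose and 2 fell in LATS1/2-KO, with a median of 0.87 on the log2 scale, and 7 rose and 3 fell in LATS1/2-Sox9-KO. Agrn, which encodes agrin and was the most counted of the list in most libraries, was at 19258, 17555 and 13766 normalized counts in control, at 30281, 25778 and 37900 in LATS1/2-KO and at 42470, 30558 and 28660 in LATS1/2-Sox9-KO. Hspg2, which encodes perlecan, was at 2381, 1580 and 713 in control and at 8317, 4598 and 7367 in LATS1/2-KO, and rose by 2.12 on the log2 scale (SE 0.41, adjusted p = 0.00152 by edgeR). Egflam, which encodes pikachurin, fell by 5.21 (SE 0.60, adjusted p = 6.62e-05), by 5.95 without LATS1/2-KO replicate 1, and Matn4, a matrilin, fell by 1.96 (SE 0.31, adjusted p = 0.000413). Between LATS1/2-Sox9-KO and LATS1/2-KO, Ecm1 rose by 1.00 (SE 0.23, adjusted p = 0.0344) and Vwa1 fell by 1.07 (SE 0.27, adjusted p = 0.0439). DESeq2 called 1 gene of the list higher and 4 lower in this comparison, beside 2.57% and 3.85% of all genes. The call of Ecm1 was lost without LATS1/2-KO replicate 2 or 3 or any LATS1/2-Sox9-KO library, with adjusted p from 0.0632 to 0.0966, and that of Vwa1 without any library except LATS1/2-KO replicate 1, with adjusted p from 0.0520 to 0.132. Ecm1 also missed the fold threshold under upper-quartile factors (0.95), with at least 10 counts in every library (0.992) and in a fit of these 2 groups alone (0.997), and Vwa1 missed the p threshold without a filter (adjusted p = 0.0886) and in the fit of these 2 groups alone (0.0690).

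Over the 9 libraries, the genes whose log2(normalized count + 1) followed each of the 10 most closely were named among 11539 protein-coding genes that averaged 100 normalized counts or more. For Fn1 they were Abhd6, Cdkn2b and Coro6 (Pearson's r 0.994, 0.992 and 0.992), for Postn Zfp637, Rsu1 and Zmym1 (0.993, 0.992 and 0.990), and for Tnc Panx1, Ube2j1 and Polr2k (0.991, 0.989 and 0.988). For Thbs1 they were Timp2, Rassf1 and Fen1 (0.989 each), for Sparc Taok1, Srsf1 and Siva1 (0.987, 0.983 and 0.981), for Ccdc80 Kifap3, Rb1cc1 and Gcc2 (0.980, 0.980 and 0.979), and for Spp1 Epb41l4a, Ncapd2 and Eif1b (0.977, 0.976 and 0.976). The genes closest to Thbs2, Fbn1 and Fbn2 were Gpd2 (0.969), Ppp2r1b (0.952) and Rps26 (0.959). All points share 3 genotypes of 3 libraries, so they are not 9 independent samples of one population, and the values are given as a description. None of the 10 genes was among the closest 3 of another.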
